A study of Mus musculus with 32 samples.

Results

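The 9 genes of mitochondrial dynamics and biogenesis followed here were measured across 4 subsets of mouse multipotent progenitors (MPPs) and 3 Cxcr4 genotypes. They were the rows of the deposited count table named Fis1, Mff, Dnm1l, Mfn1, Mfn2, Opa1, Tfam, Nrf1 and Polg, 9 of its 30644 genes, and all 9 passed the filter on low counts. The genotypes were 1013/1013, with the 1013 allele of Cxcr4 on both copies, +/1013, with it on 1, and wild type (WT). Cxcr4 is the receptor for CXCL12, and the allele shortens its cytoplasmic tail as found in WHIM syndrome. Mice were C57BL/6, with no age in the labels, and MPP4, MPP3, MPP2 and MPP1 were sorted from bone marrow of each genotype. Each of the 32 libraries held RNA of about 3000 pooled cells, amplified for 12 PCR cycles with SMART-Seq v4, and each subset had 2 1013/1013, 3 +/1013 and 3 WT libraries. No label ties a library to an animal, so p-values measure only the spread between these libraries, which may in part be technical.

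Mitochondria divide and fuse continually. Dnm1l encodes DRP1, the dynamin-like GTPase that constricts and cuts the organelle, and Mff and Fis1 encode outer-membrane proteins, of which Mff is a main receptor that recruits DRP1. Mfn1 and Mfn2 encode the mitofusins that join outer membranes, and Opa1 encodes the GTPase that joins inner membranes and shapes cristae. Tfam packages mitochondrial DNA and is needed for its transcription, Polg encodes the catalytic subunit of the mitochondrial DNA polymerase, and Nrf1 encodes nuclear respiratory factor 1, a transcription factor of many nuclear genes for respiratory proteins. In blood-forming stem and progenitor cells the fusion protein Mfn2 and mitochondrial fission are known for roles in maintaining stem cell function.

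Promoter windows of 300 bases from RefSeq (GRCm38.p6) are given for Fis1, Tfam, Mfn2 and Opa1. As means over the genotypes, Fis1 and Tfam were higher in MPP4, MPP3 and MPP2 than in MPP1, and Mfn2 was lower in MPP4 and MPP3. Opa1 was the member of lowest level. All windows are 5′ to 3′ on the gene's own strand. Capitals mark CCGGAAG, a form of the ETS site bound by GABP (nuclear respiratory factor 2), or the palindrome bound by NRF1, which is GCGCA and GCGC with any 1 base between them, both searched on either strand, and positions count from the start site.
Fis1: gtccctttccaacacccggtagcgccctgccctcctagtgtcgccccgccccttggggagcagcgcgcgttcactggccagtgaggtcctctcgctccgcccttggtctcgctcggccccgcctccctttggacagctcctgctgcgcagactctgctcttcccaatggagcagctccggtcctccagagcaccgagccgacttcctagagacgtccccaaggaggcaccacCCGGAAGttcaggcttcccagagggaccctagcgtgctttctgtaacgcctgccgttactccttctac
Tfam: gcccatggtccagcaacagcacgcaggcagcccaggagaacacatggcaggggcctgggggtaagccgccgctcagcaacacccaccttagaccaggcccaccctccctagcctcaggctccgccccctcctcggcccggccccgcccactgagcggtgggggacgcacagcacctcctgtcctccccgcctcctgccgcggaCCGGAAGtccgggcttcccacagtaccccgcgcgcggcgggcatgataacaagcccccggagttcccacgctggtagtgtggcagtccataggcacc
Mfn2: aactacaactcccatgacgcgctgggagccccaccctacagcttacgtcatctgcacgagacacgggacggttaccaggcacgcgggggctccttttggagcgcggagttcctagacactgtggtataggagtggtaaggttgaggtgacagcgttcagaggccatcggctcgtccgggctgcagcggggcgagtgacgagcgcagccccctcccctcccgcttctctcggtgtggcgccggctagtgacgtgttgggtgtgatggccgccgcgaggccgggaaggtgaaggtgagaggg
Opa1: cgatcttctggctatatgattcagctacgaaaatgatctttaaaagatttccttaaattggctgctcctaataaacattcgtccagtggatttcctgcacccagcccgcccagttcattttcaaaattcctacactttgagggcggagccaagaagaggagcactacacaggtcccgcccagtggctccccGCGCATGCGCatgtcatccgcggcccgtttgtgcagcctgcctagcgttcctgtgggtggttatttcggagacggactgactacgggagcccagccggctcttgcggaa
These windows are chr5:136953025-136953324 (plus strand), chr10:71237995-71238294 (minus), chr4:147904649-147904948 (minus) and chr16:29579084-29579383 (plus). The first base of CCGGAAG stood at position -18 in Fis1 and -47 in Tfam. A second RefSeq start of Fis1, with its window at chr5:136961827-136962126, held CCGGAAG at position 19. The windows of Mfn1, Polg and 1 of the 2 starts of Dnm1l held it as well, at -44, -38 and 12, the last on the reverse strand. The Opa1 window held the NRF1 palindrome at position -59. Of 15 windows of the 9 genes, 6 windows of 5 genes held CCGGAAG and 1 held the palindrome. Among all 32851 windows in the table, 8.86% held CCGGAAG and 4.6% held the palindrome. Neither letter string lies in the windows of Mfn2, Mff or Nrf1. A match is a description of letters and not a binding site.

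The libraries held 13016038 to 37050983 counts assigned to genes. The subset labels were checked against surface markers. Flt3 averaged 418 ± 152 CPM in MPP4, 118 ± 32.9 in MPP3, 15.4 ± 15.2 in MPP2 and 24.2 ± 13.6 in MPP1 (SD, n = 8 each). CPM here and below are counts divided by the TMM-scaled library size. Slamf1 (CD150) was at 0 in 6 of 8 MPP4 and 6 of 8 MPP3 libraries and was detected in all MPP2 and MPP1 libraries. Cd48 averaged 919 CPM in MPP4, 778 in MPP3, 470 in MPP2 and 60.2 in MPP1. Cxcr4 had 66.4 CPM in 1013/1013, 42.9 in +/1013 and 32.6 in WT as means, and none of its differences passed the threshold. Neither this level nor the counts show whether a library carries the allele. Neutrophil markers, summed over 8 genes, took at most 0.00652% of counts in 24 libraries and 0.00302 to 0.393% in the other 8, whose label numbers are multiples of 3. Among these markers Mmp8 was at 0 in 21, Lcn2 in 20 and Ltf in 18 of 32 libraries. Of the 8 libraries, 3 were MPP4, 2 were MPP3, 3 were MPP2 and 0 were MPP1. Libraries also differed in how much long transcripts were counted relative to short ones. A long-minus-short measure was taken as the median log2 level, relative to the mean over libraries, of genes whose longest coding transcript is at least 4172 bases, minus that of genes of at most 1868 bases. It ran from -1.44 in MPP2 1013/1013 library 1 to 0.93 in MPP1 1013/1013 library 2. Its medians were 0.24 in MPP4, 0.01 in MPP3, 0.00 in MPP2 and 0.70 in MPP1, and -0.46 in 1013/1013, 0.09 in +/1013 and 0.29 in WT.

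By CPM without regard to length, the 9 genes fell into an abundant and a scarce set. Mff, Fis1 and Tfam averaged 353 ± 86.7, 325 ± 108 and 217 ± 48.4 CPM over the 32 libraries (SD). The other 6 averaged 12.8 CPM (Opa1) to 70.1 CPM (Nrf1), with Mfn2 at 50.8, Dnm1l at 39.5, Polg at 32.5 and Mfn1 at 26.2. Levels between genes are comparable only per length. Per kb of the longest coding GENCODE M21 transcript the order was Fis1 at 342 CPM per kb, Mff 169, Tfam 52.1, Nrf1 19.6, Mfn2 11.7, Dnm1l 9.95, Mfn1 5.75, Polg 4.15 and Opa1 2.06. By this length the levels formed a graded series. Per kb of the deposited median transcript length it was Fis1 at 435, Tfam 279, Mff 235, Nrf1 42.7, Polg 40.3, Mfn1 37.1, Mfn2 20.9, Dnm1l 13.5 and Opa1 4.02. Fis1 was highest and Opa1 lowest by either length, and Nrf1 came next after Fis1, Mff and Tfam. Mff and Tfam changed places with the length used, and Mfn1, Mfn2, Dnm1l and Polg moved places as well. The coefficient of variation between libraries was 22.3% for Tfam, 24.6% for Mff, 32.7% for Nrf1 and 33.2% for Fis1, and it was largest for Opa1, at 76.1%. Opa1 had no count in 3 libraries, namely MPP4 +/1013 library 1, MPP2 1013/1013 library 1 and MPP2 +/1013 library 3.

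**Figure D1:**
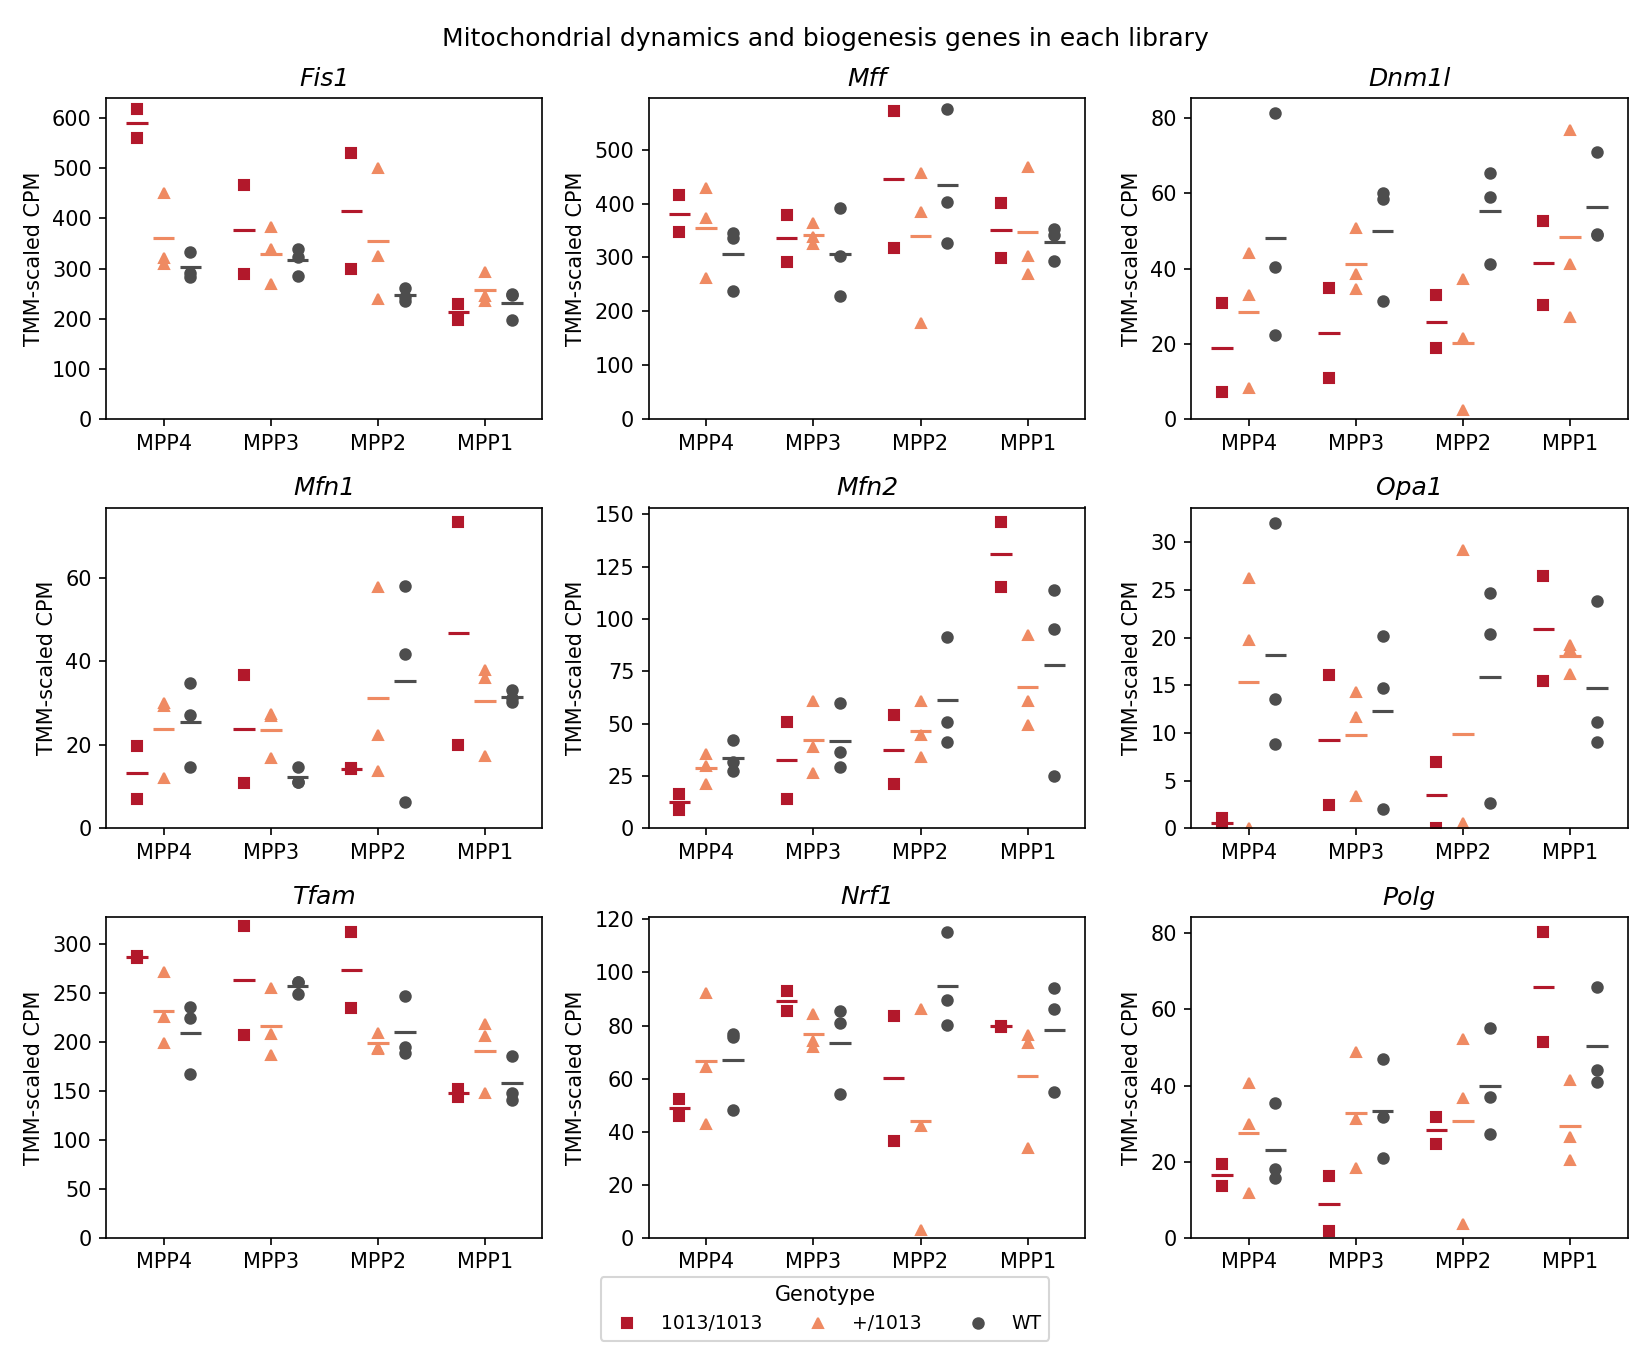
Each point is 1 library's level (TMM-scaled CPM, linear axis from 0) of a gene, by subset from MPP4 at the left to MPP1 at the right and by genotype (red squares 1013/1013, orange triangles +/1013, grey circles WT), with a bar at each group's mean. Fis1 and Tfam sit lowest in MPP1 and Mfn2 highest there, and the 2 MPP4 1013/1013 libraries have the highest Fis1 levels, 561 and 619 CPM.

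Fis1 and Tfam were higher and Mfn2 was lower in MPP4 than in MPP1, when each genotype had equal weight (8 libraries of each subset). These 3 of 9 genes passed an adjusted p of 0.05, 2 higher and 1 lower, where 14.7% of all 18676 tested genes passed, 7.59% higher and 7.12% lower. The median log2 difference of the 9 genes was -0.71, against -0.15 over all genes, and 6 of the 9 had a negative value. No member had libraries apart when genotypes were pooled, where 3.48% of all genes did. Within 1013/1013, with 2 libraries against 2, 2 of the 9 genes lay above MPP1 and 5 below. Within +/1013 and within WT, 1 lay above and 1 below. In WT, 17.3% of all genes had libraries apart. That share was not counted in 1013/1013 or +/1013, also for the genes described below. In bulk RNA, fewer cells of a type and less RNA per cell cannot be told apart.

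Fis1 (chr5:136953275-136966234 in mm10) had 561 and 619 CPM in MPP4 1013/1013 libraries, against 230.1 and 196 in MPP1 1013/1013 libraries. In +/1013 it had 451, 308 and 320.5 CPM in MPP4, against 294, 245 and 235 in MPP1. In WT it had 291, 333 and 284 CPM in MPP4, against 247, 249 and 197 in MPP1. Within each genotype, every MPP4 library lay above every MPP1 library, although the ranges of the 2 subsets overlap when genotypes are pooled. The mean was 396 ± 131 CPM in MPP4 and 237 ± 31.3 in MPP1 (SD, n = 8 each), and the log2 difference was 0.78 (SE 0.15, adjusted p = 0.00123).

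Mfn2 (chr4:147873599-147904704) moved the other way. It had 8.60 and 16.4 CPM in MPP4 1013/1013 libraries, against 115 and 146 in MPP1 1013/1013 libraries. In +/1013 it had 35.6, 29.8 and 20.99 CPM in MPP4, against 60.97, 49.4 and 92.5 in MPP1. In WT it had 27.6, 42.03 and 31.9 CPM in MPP4, against 25.1, 114 and 95.3 in MPP1. Both mutant genotypes had no overlap, while the WT ranges overlapped through MPP1 library 1. The mean was 26.6 ± 10.8 CPM in MPP4 and 87.3 ± 39.8 in MPP1, and the log2 difference was -1.94 (SE 0.34, adjusted p = 0.000457).

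Tfam (chr10:71225464-71238280) had 285 and 288 CPM in MPP4 1013/1013 libraries, against 152 and 144 in MPP1 1013/1013 libraries. In +/1013 it had 271, 226 and 199 CPM in MPP4, against 206, 218 and 148 in MPP1. In WT it had 235, 225 and 167 CPM in MPP4, against 186, 140.3 and 148 in MPP1. The ranges were apart in 1013/1013 and overlapped in +/1013 and WT. The mean was 237 ± 42.6 CPM in MPP4 and 168 ± 30.9 in MPP1, and the log2 difference was 0.55 (SE 0.12, adjusted p = 0.00396).

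The other fission, fusion and biogenesis genes did not pass. Polg (chr7:79446231-79466362) averaged 23.1 CPM in MPP4 and 46.4 in MPP1, a log2 difference of -1.07 (SE 0.44, adjusted p = 0.0991). Its exons overlap those of Fanci on the opposite strand by 921 bases, and the strand setting of the counting is not given. Those of Dnm1l and Mff overlap opposite-strand exons as well, by 243 and 195 bases. Mfn1 (chr3:32529465-32579239) had 21.9 CPM in MPP4 and 34.97 in MPP1, a difference of -0.82 (SE 0.42, adjusted p = 0.184). Dnm1l (chr16:16312230-16358959), Nrf1 (chr6:30047988-30153458) and Opa1 (chr16:29579334-29654884) had differences of -0.71, -0.27 and -1.71, with 95% intervals from -1.64 to 0.22, -1.03 to 0.49 and -4.05 to 0.62. By CPM, Opa1 averaged 12.7 in MPP4 and 17.5 in MPP1, and in WT libraries alone 18.2 in MPP4 and 14.7 in MPP1. Mff (chr1:82724890-82752394), the DRP1 receptor, had 343 CPM in MPP4 and 341 in MPP1, a difference of 0.02 with the interval -0.38 to 0.41.

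Other markers moved between these subsets. Red cell markers, with all 5 genes of higher mean in MPP4, took 0.00177 to 0.386% of counts in MPP4 and 0.00310 to 0.00708% in MPP1. Immediate-early genes, with all 6 of lower mean in MPP4, took 0.0395 to 1.24% in MPP4 and 0.306 to 1.25% in MPP1. In the libraries numbered a multiple of 3, red cell markers took a median of 0.125% and immediate-early genes 0.0480%, against 0.00505% and 0.732% in the other 24. The part of these markers in the differences was not tested beyond leaving out those libraries. The 3 calls between MPP4 and MPP1 were kept in each of 32 fits that left out 1 library, and without the 8 libraries numbered a multiple of 3 the differences were 0.80 for Fis1, -2.05 for Mfn2 and 0.62 for Tfam. Over all genes the same comparison had a median of 0.32 in the 2020 short genes and -0.50 in the 2018 long genes. With the long-minus-short measure as a term, fitted after the data were seen, none of the 9 genes passed: Fis1 was at 0.28 (SE 0.09, adjusted p = 0.0723), Mfn2 at -1.23 (SE 0.38, adjusted p = 0.0723) and Tfam at 0.30 (SE 0.13, adjusted p = 0.218). The calls across all genes fell to 747 with that term, against 2747 without it. The measure itself differed between the subsets and between the genotypes, as given above. The term can therefore take up part of such a difference, and these cannot be told apart, here or below.

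Fis1 and Tfam were also higher in MPP3 and in MPP2 than in MPP1, when each genotype had equal weight. In MPP3, Fis1, Tfam and Mfn2 passed, 3 of 9 where 3.11% of all genes did, 2.36% higher and 0.75% lower. Fis1 averaged 337 ± 64.0 CPM in MPP3 and 237 ± 31.3 in MPP1, a log2 difference of 0.55 (SE 0.15, adjusted p = 0.0464). Tfam averaged 243 ± 41.8 CPM in MPP3 and 168 ± 30.9 in MPP1, a difference of 0.57 (SE 0.12, adjusted p = 0.0111). Mfn2 averaged 39.6 ± 16.5 CPM in MPP3 and 87.3 ± 39.8 in MPP1, a difference of -1.20 (SE 0.33, adjusted p = 0.0464). Polg, at 26.98 CPM in MPP3, had -1.11 (SE 0.44, adjusted p = 0.164), and Mfn1, at 19.4 CPM, had -0.90 (SE 0.42, adjusted p = 0.236). In MPP2, Tfam and Fis1 passed, 2 of 9 where 6.73% of all genes did, 5.01% higher and 1.72% lower. Tfam averaged 221 ± 42.5 CPM there, a difference of 0.45 (SE 0.12, adjusted p = 0.0268). Fis1 averaged 329 ± 119 CPM, a difference of 0.51 (SE 0.15, adjusted p = 0.0433). By genotype, Fis1 averaged 246 CPM in MPP2 and 231 in MPP1 in WT, with overlapping ranges. Its means, MPP2 first, were 355 and 258 CPM in +/1013 and 415 and 213 in 1013/1013. Those of Tfam were 210 and 158 CPM in WT, 198 and 191 in +/1013 and 273 and 148 in 1013/1013. Mfn2, at 49.8 ± 20.9 CPM in MPP2, had -0.90 (SE 0.33, adjusted p = 0.0967). The medians of the 9 genes were -0.42 in MPP3 and -0.50 in MPP2, against -0.08 and -0.16 over all genes. Every member's libraries overlapped between the pooled subsets, where 1.41% of genes did not in MPP3 and 0.3% in MPP2.

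These calls were close to the threshold. Leaving out 1 library at a time, Tfam stayed past it in 29 of 32 fits in MPP3 and 24 in MPP2, Fis1 in 10 and 18, and Mfn2 in 11 of 32 in MPP3. The Tfam call in MPP3 was lost without MPP3 1013/1013 library 2 (0.47, adjusted p = 0.0835), MPP1 1013/1013 library 1 (0.58, adjusted p = 0.0625) or MPP1 1013/1013 library 2 (0.55, adjusted p = 0.0561), against 0.57 with all libraries. The Fis1 call in MPP2 had its highest adjusted p, 0.25, with a difference of 0.35, without MPP2 1013/1013 library 1. Without the 8 libraries numbered a multiple of 3, Tfam passed in MPP3 (0.60, adjusted p = 0.0234), while Fis1 (0.0542) and Mfn2 (0.0832) did not, and in MPP2 neither Tfam (adjusted p = 0.0512) nor Fis1 (0.0573) did. With the long-minus-short term no member passed in either subset, and Fis1 in MPP2 changed sign, to -0.0926 (adjusted p = 1).

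For Mfn2 the order of the means was MPP4 below MPP3, MPP2 and MPP1. For Fis1 the order was MPP4 above MPP3, MPP2 and MPP1, and for Tfam it was MPP3, MPP4, MPP2 and MPP1. Neighbours in each order among MPP2, MPP3 and MPP4 differed by less than 1 SD of the libraries, except Mfn2, at 26.6 ± 10.8 CPM in MPP4 and 39.6 ± 16.5 in MPP3. Differences among these 3 subsets were not tested.

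In WT libraries alone, with 3 against 3, none of the 9 genes passed against MPP1 in any subset, where 0.76% of genes passed in MPP4, 0.102% in MPP3 and 0% in MPP2. At an unadjusted p of 0.05, 2 members passed in MPP4 (Mfn2 and Tfam), 1 in MPP3 (Tfam) and 1 in MPP2 (Tfam), with 8.75%, 8.15% and 4.2% of all genes. Tfam had 249, 261 and 261 CPM in MPP3 WT libraries and 195, 189 and 247 in MPP2, all above the 186, 140.3 and 148 of MPP1. The log2 difference of Tfam in MPP3 was 0.70 (SE 0.19, adjusted p = 0.254), and DESeq2 called it, as the 1 member it called in that comparison. Mfn1 lay below MPP1 in every MPP3 WT library, with 14.7, 11.1 and 11.2 CPM against 30.4, 31.3 and 33.1 in MPP1, and its difference was -1.36 (SE 0.67, adjusted p = 0.615). Polg lay below MPP1 in every MPP4 WT library, with 18.01, 15.6 and 35.5 CPM against 40.97, 65.9 and 44.1, a difference of -1.13 (SE 0.70, adjusted p = 0.637). Members without overlap numbered 2 of 9 in MPP4 (Fis1, Polg), 3 in MPP3 (Fis1, Tfam, Mfn1) and 1 in MPP2 (Tfam), where 17.3%, 15.6% and 9.25% of all genes did not overlap.

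**Figure D2:**
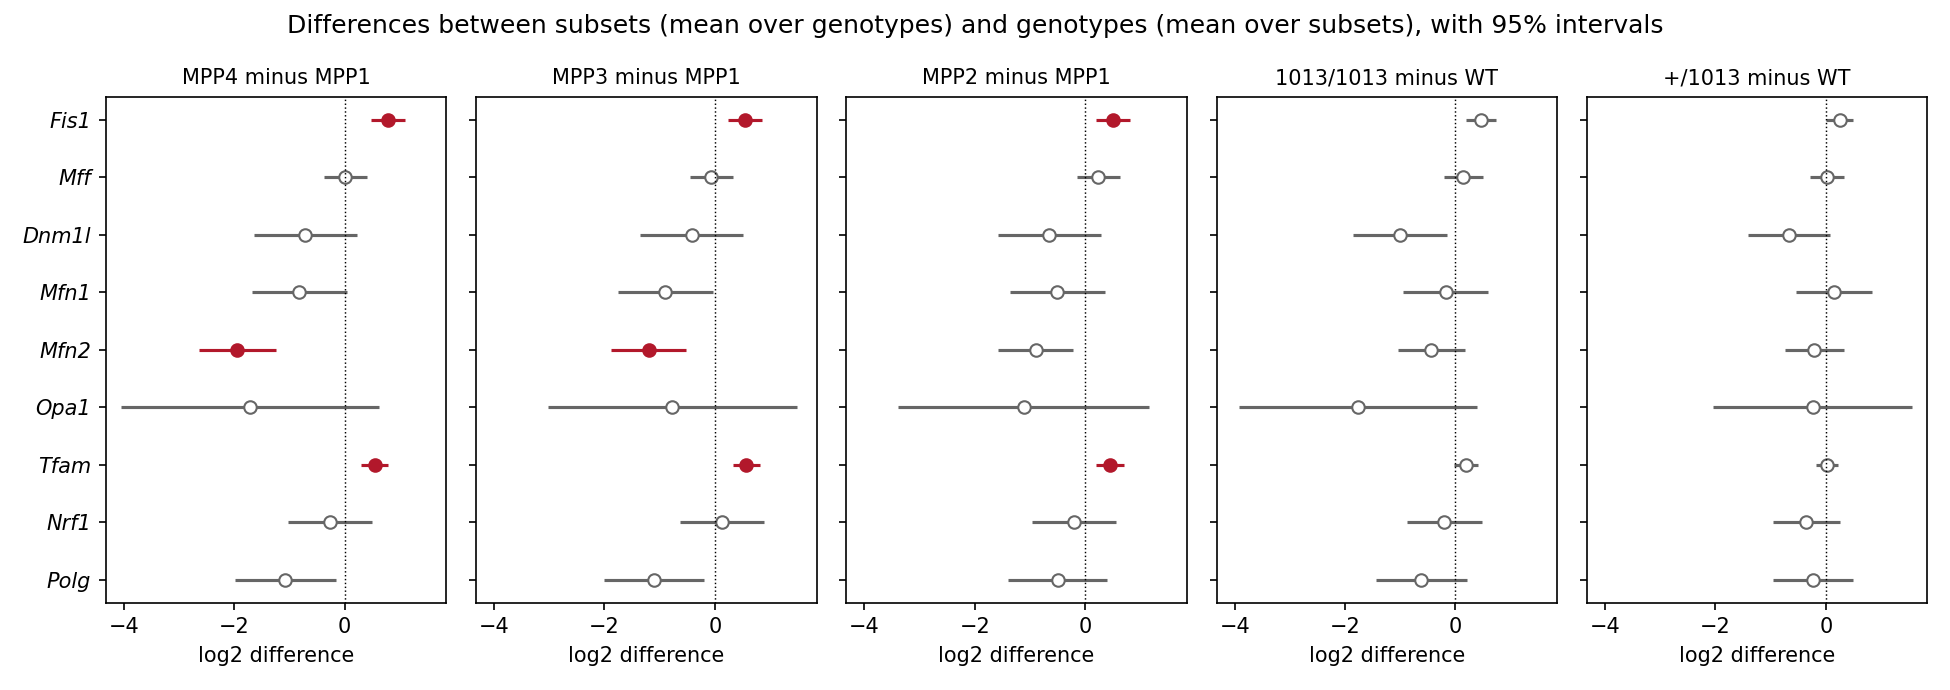
Log2 differences of the 9 genes with 95% intervals, for MPP4, MPP3 and MPP2 minus MPP1 (equal weight per genotype) and for 1013/1013 and +/1013 minus WT (equal weight per subset); filled red points passed an adjusted p of 0.05. Fis1 and Tfam are filled and right of 0 in all 3 subset panels, Mfn2 is filled and left of 0 in MPP4 and MPP3, no point is filled in the genotype panels, and Opa1 has the widest intervals.

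The 1013 allele on both copies gave no call among the 9 genes. In 1013/1013 against WT, averaged over the 4 subsets, 0 of 9 passed where 0.685% of all genes did, and Fis1 and Dnm1l passed an unadjusted p of 0.05, where 16.4% of genes did. DESeq2 called Fis1 and limma-voom called none. The median difference of the 9 genes was -0.20, against -0.17 over all genes. Fis1 ran from 196 to 619 CPM in 1013/1013 with a median of 383, and from 197 to 339 in WT with a median of 273. The ranges overlapped, the means were 399 ± 164 CPM in 1013/1013 (n = 8) and 274 ± 43.4 in WT (n = 12), and the difference was 0.46 (SE 0.13, adjusted p = 0.0877). Dnm1l ran from 7.07 to 52.8 CPM in 1013/1013 with a median of 30.5, and from 22.3 to 81.5 in WT with a median of 53.9. Its means were 27.3 ± 14.7 CPM in 1013/1013 and 52.4 ± 16.9 in WT, and the difference was -1.003 (SE 0.41, adjusted p = 0.222). Tfam was at 0.19 (SE 0.11, adjusted p = 0.390), Opa1 at -1.77 (SE 1.04, adjusted p = 0.425), Polg at -0.62 and Mfn2 at -0.44, with Mfn1, Nrf1 and Mff between -0.20 and 0.14.

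The Fis1 difference passed without the 8 libraries numbered a multiple of 3 (0.52, adjusted p = 0.0450) and in 3 of 32 fits that left out 1 library, those without MPP3 1013/1013 library 1, MPP2 1013/1013 library 2 or MPP2 +/1013 library 3. Over all genes the comparison had a median of 0.25 in short and -0.46 in long genes. With the long-minus-short term the differences were 0.02 for Fis1 and 0.09 for Dnm1l, both with an adjusted p of 1.

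Within MPP4, the Fis1 values of the 1013/1013 libraries, 561 and 619 CPM, were all above the WT values of 291, 333 and 284 CPM. The difference was 0.96 (SE 0.26, adjusted p = 0.0831), and 0 of 9 genes passed where 0.712% of all genes did. The median difference of the 9 genes was -0.48, against -0.12 over all genes. At an unadjusted p of 0.05, 3 members passed (Fis1, Mfn2 and Tfam), with 15.8% of all genes. DESeq2 called Fis1 and Opa1, and limma-voom called Fis1. Opa1 had 20 and 1 counts in the MPP4 1013/1013 libraries, or 1.11 and 0.0376 CPM, against 8.83, 13.6 and 32.03 CPM in WT. The fitted difference was -5.00 with a wide error (SE 2.49, adjusted p = 0.333). Mfn2 had 8.60 and 16.4 CPM in 1013/1013 and 27.6, 42.03 and 31.9 in WT, a difference of -1.44 (SE 0.61, adjusted p = 0.255). Tfam had 285 and 288 CPM in 1013/1013 and 235, 225 and 167 in WT, a difference of 0.46 (SE 0.21, adjusted p = 0.302). Mff had 416 and 347 CPM in 1013/1013 and 345, 335 and 238 in WT, a difference of 0.32 (SE 0.34, adjusted p = 0.673). In these 5 genes the libraries did not overlap, 3 higher and 2 lower, where 34.3% of all genes did not overlap, 15.5% higher and 18.8% lower. The 2 MPP4 1013/1013 libraries had long-minus-short measures of -0.93 and -1.24, below the 0.25 to 0.56 of the WT libraries, and with that term Fis1 was at 0.02 (adjusted p = 1).

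In the other subsets the 1013/1013 libraries gave 0 of 9 calls each, where 0% of genes passed in MPP3 and 0.00535% in MPP2 and in MPP1. In MPP3, Polg had 16.1 and 1.89 CPM in 1013/1013 and 21.1, 31.7 and 46.8 in WT, a difference of -1.88 (SE 0.84, adjusted p = 0.973). In MPP2, Fis1 had 530.1 and 299.6 CPM in 1013/1013 and 235, 243 and 261 in WT, a difference of 0.75 (SE 0.26, adjusted p = 0.275), which passed without 1013/1013 library 2 (1.11, adjusted p = 0.0311), a fit in which the 1 library left is assumed to vary like the other groups. Dnm1l in MPP2 had 18.9 and 32.9 CPM in 1013/1013 and 65.4, 59.1 and 41.3 in WT, a difference of -1.09 (SE 0.83, adjusted p = 0.585). In MPP1, Mfn2 had 115 and 146 CPM in 1013/1013 and 25.1, 114 and 95.3 in WT, a difference of 0.75 (SE 0.57, adjusted p = 1). Each of these gene and subset pairs had no overlap, and 14.7% of all genes did not overlap in MPP3, 22.5% in MPP2 and 19.9% in MPP1.

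One copy of the allele gave no call either. In +/1013 against WT over the 4 subsets, 0 of 9 genes passed where 0.0214% of all genes did, and the median difference was -0.21, against 0.01 over all genes. Dnm1l had 34.6 ± 19.5 CPM in +/1013 and 52.4 ± 16.9 in WT, a difference of -0.67 (SE 0.36, adjusted p = 1). Fis1 had 326 ± 83.3 CPM in +/1013 and 274 ± 43.4 in WT, a difference of 0.25 (SE 0.12, adjusted p = 1), the 1 member with an unadjusted p under 0.05 (0.0480), where 4% of genes had one. Within the subsets none passed, where 0% of genes did in each. In MPP2, Dnm1l had 21.5, 37.2 and 2.35 CPM in +/1013, all below the 65.4, 59.1 and 41.3 of WT, a difference of -1.44 (SE 0.73, adjusted p = 0.811). In MPP3, Mfn1 had 27.4, 16.8 and 26.9 CPM in +/1013, all above the 14.7, 11.1 and 11.2 of WT, a difference of 0.94 (SE 0.67, adjusted p = 1). No other member was without overlap in any subset, and 6.03% of all genes were so in MPP4, 5.61% in MPP3, 6.16% in MPP2 and 5.1% in MPP1. MPP2 +/1013 library 3 had the lowest value of Dnm1l and Nrf1 of all 32 libraries, 2.35 and 3.08 CPM, and its long-minus-short measure was -1.09. The direct difference between 1013/1013 and +/1013 called 0 of 9 members, where 0.0428% of genes passed, and Fis1 stood at 0.22 (SE 0.13, adjusted p = 0.703).

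Whether the difference of 1013/1013 from WT was another in MPP4 than in MPP1 to MPP3 was tested as an interaction. It called 0 of 9 genes, where 0.102% of all genes passed. Fis1 stood at 0.66 (SE 0.31, adjusted p = 0.581), Mfn2 at -1.33 (SE 0.69, adjusted p = 0.650) and Opa1 at -4.31 (SE 2.57, adjusted p = 0.724). For +/1013 it called 0 of 9 and 0% of genes, and the members lay between -0.34 and 0.64.

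Across libraries, Fis1 varied with Tfam and against Mfn2, Opa1 and Dnm1l. Over 32 libraries that share sequencing depth, subset and genotype structure, log2(CPM + 1) of Fis1 had a Pearson r of 0.77 with Tfam, and of -0.79 with Mfn2, -0.77 with Opa1 and -0.75 with Dnm1l. Dnm1l had r of 0.75 with Opa1 and 0.72 with Polg, so DRP1 mRNA varied with that of the inner-membrane fusion gene. The mitofusins were less alike, with r of 0.46, and Mff was nearly uncorrelated with Dnm1l, at 0.01, and with Fis1, at 0.10. The long-minus-short measure of the libraries moved with most of these genes. Its r was -0.92 with Fis1, -0.74 with Tfam and -0.22 with Mff, and 0.83 with Opa1, 0.76 with Dnm1l, 0.70 with Mfn2, 0.64 with Polg, 0.56 with Nrf1 and 0.38 with Mfn1. Within groups the rank correlation with Fis1 was -0.93. Fis1 has the shortest longest-coding transcript of the 9 genes, 948 bases, and Polg the longest, 7837 bases. Tfam has 4167 bases by that length and 779 by the deposited median length, where Fis1 has 746.5. Neutrophil markers had r of -0.60 with Mff and -0.30 to 0.11 with the other 8 genes. The marker share is skewed, and by rank its correlation was -0.47 with Mff, -0.51 with Mfn2 and 0.38 with Fis1.

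**Figure D3:**
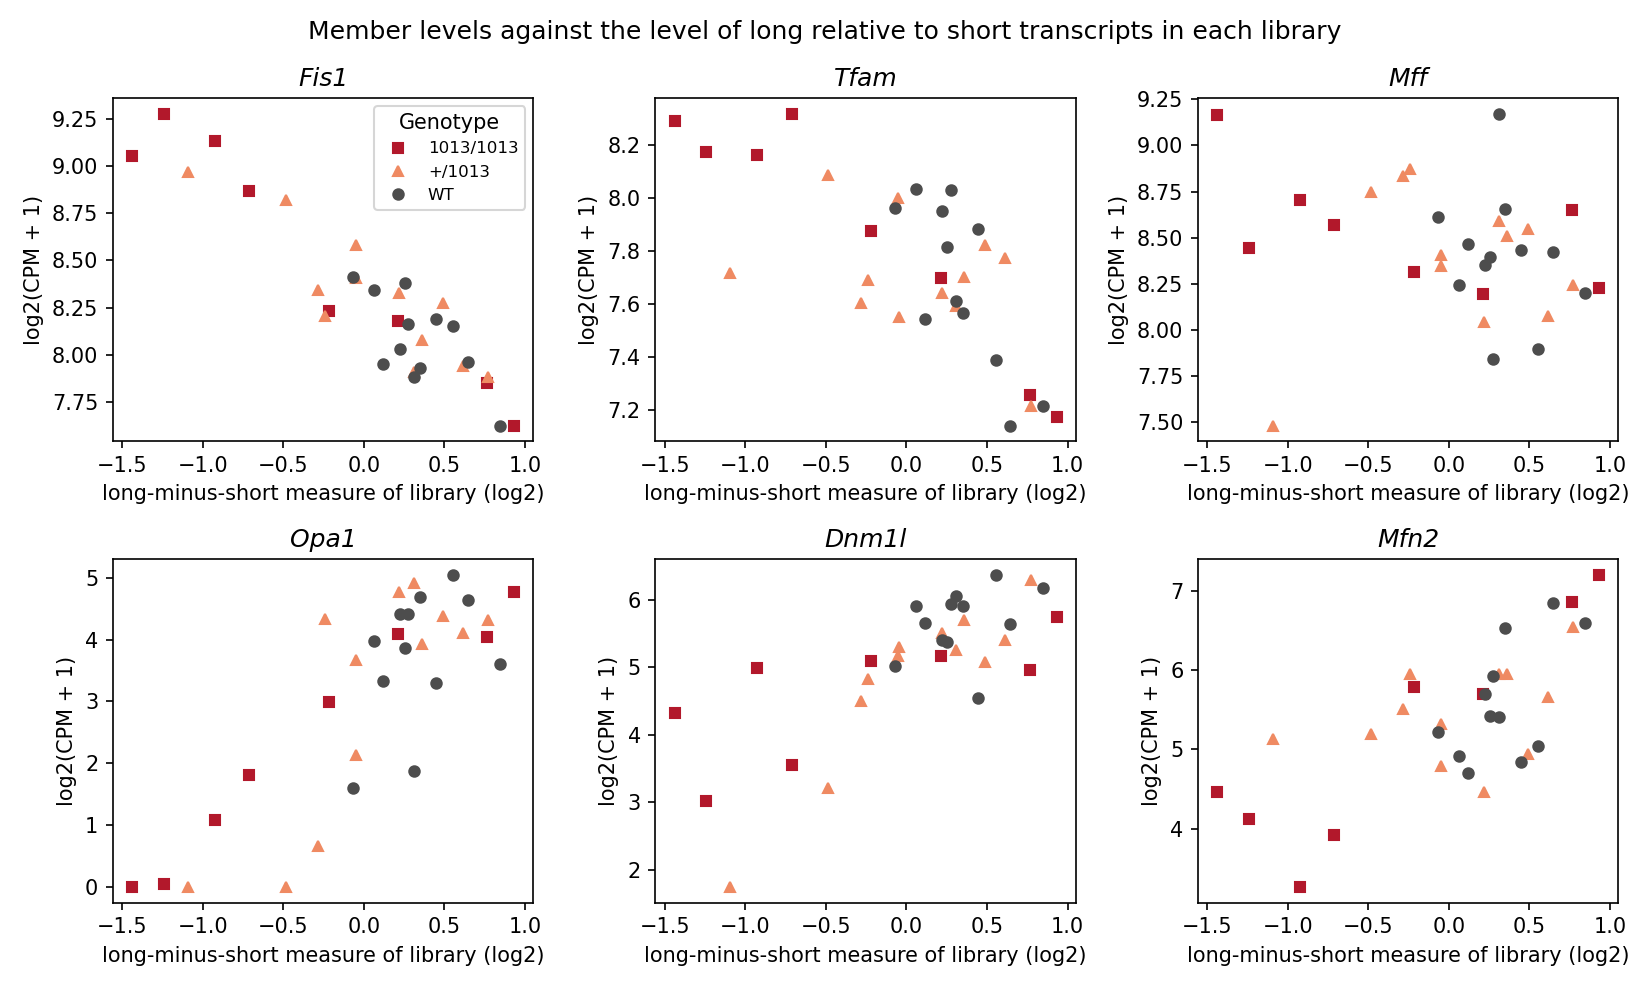
Log2(CPM + 1) of 6 genes in each of the 32 libraries against the library's long-minus-short measure (log2), with red squares for 1013/1013, orange triangles for +/1013 and grey circles for WT. Fis1 and Tfam fall and Opa1, Dnm1l and Mfn2 climb from left to right, Mff shows little slope, and the 3 libraries without an Opa1 count lie at -0.49 or further left.

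Genes whose 12 group means were most like those of each member, among 7980 genes of at least 10 CPM, differed from member to member. Fis1 was most like Rsl24d1 (r = 0.99) and Rpl22 (0.98), both tied to the large ribosomal subunit, and Rsl24d1 was also first over the 32 libraries (0.94). Tfam was most like Hddc2 and Hat1 (0.97 each), Mfn2 like Maged2 (0.96) and Siah2 (0.96), and Opa1 like Gpd2 (0.97) and Arhgap4 (0.97). Dnm1l was most like Mfsd12 (0.94) and Prep (0.93), Mfn1 like Atp8b2 and Smad7 (0.95 each), Nrf1 like Lmf1 (0.93) and Pced1a (0.90), and Polg like Urgcp and Plod1 (0.92 each). Mff had the weakest likeness, with Ccnc (0.82) and Abhd17c (0.78). For members other than Fis1, another gene came first when single libraries replaced group means. Over the 32 libraries the r of the pairs named here ran from 0.25 (Mfn1 with Smad7) to 0.94 (Fis1 with Rsl24d1). It was 0.42 for Mfn1 with Atp8b2 and 0.46 for Polg with Urgcp.

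Other genes of these pathways were counted in the same fit. Whether any of their calls, here or below, held with the long-minus-short term was not tested. With that term, calls among all genes fell from 2747 to 747 between MPP4 and MPP1. Between MPP4 and MPP1, 3 of 23 other fission and fusion genes rose and 0 fell, where 7.59% of all genes rose and 7.12% fell. Oma1, the protease that cleaves OPA1 under stress, had 145 CPM in MPP4 and 94.0 in MPP1, a log2 difference of 0.69 (SE 0.15, adjusted p = 0.00437). Phb2, a prohibitin of the inner membrane, was at 0.35 (SE 0.12, adjusted p = 0.0461), and Slc25a46, an outer-membrane carrier-like protein, at 0.55 (SE 0.18, adjusted p = 0.0415). Of 12 genes of the cristae organising complex, 1 rose, a share near that of all genes. It was Mtx2, an outer-membrane protein, with 229 CPM in MPP4 and 146 in MPP1, a difference of 0.74 (SE 0.19, adjusted p = 0.00937). Of 24 other genes of mitochondrial DNA replication and transcription, 4 rose and 1 fell. Ssbp1, the mitochondrial single-strand DNA-binding protein, had 175 CPM in MPP4 and 91.8 in MPP1, a difference of 0.99 (SE 0.18, adjusted p = 0.000773). Tefm, the mitochondrial transcription elongation factor, was at 1.34 (SE 0.30, adjusted p = 0.00419) and Mterf4 at 0.86 (SE 0.28, adjusted p = 0.0397). Lig3, a DNA ligase of nucleus and mitochondria, fell, with 11.3 CPM in MPP4 and 31.3 in MPP1. Its fitted difference, with equal weight per genotype, was -3.86 (SE 0.99, adjusted p = 0.0115), larger in size than the ratio of these means gives.

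Among 23 tested regulators of biogenesis, 1 rose and 3 fell in MPP4 against MPP1, a share near the 14.7% called among all genes. Gabpb1, a subunit of GABP, had 267 CPM in MPP4 and 164 in MPP1, a difference of 0.74 (SE 0.12, adjusted p = 0.000208). It was the only member of these lists called in MPP4 against MPP1 with WT libraries alone, at 0.88 (SE 0.19, adjusted p = 0.0217). Nrip1, a corepressor of nuclear receptors, fell, with 13.9 CPM in MPP4 and 61.4 in MPP1. Its fitted difference was -3.17 (SE 0.62, adjusted p = 0.00144), again larger in size than the ratio of these means gives. Yy1 and Tfeb fell by fitted values of 1.67 and 1.84 on the log2 scale. Of 20 mitophagy genes, 1 rose and 6 fell, where 7.59% and 7.12% of all genes did. Tax1bp1 and Ulk1, an autophagy receptor and the autophagy-starting kinase, had differences of -1.18 (SE 0.29, adjusted p = 0.00910) and -2.10 (SE 0.55, adjusted p = 0.0122). Bnip3l, a mitophagy receptor, had 181 CPM in MPP4 and 257 in MPP1, a difference of -0.58 (SE 0.16, adjusted p = 0.0164), and Pink1, the kinase that marks damaged mitochondria, had 130 CPM in MPP4 and 191 in MPP1, a difference of -0.64 (SE 0.19, adjusted p = 0.0223). Of 12 tested genes of the mitochondrial genome, mt-Co1 and mt-Nd1, subunits of complexes IV and I, rose, where 7.59% of all genes rose. All 12 had positive values, with a median of 0.76. Together these genes took a median of 1.14% of counts in MPP4 and 0.716% in MPP1, and the part of the libraries numbered a multiple of 3, of which MPP1 has 0, was not tested. The medians of the other lists were 0.05 for fission and fusion, 0.15 for cristae, 0.31 for mitochondrial DNA, -0.49 for regulators and -0.57 for mitophagy, against -0.15 over all genes.

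The same lists held fewer calls elsewhere, and so did all genes, of which 14.7% passed in MPP4 against MPP1. Genes tested numbered 23 for fission and fusion, 12 for cristae and 24 for mitochondrial DNA. They numbered 23 for regulators, 20 for mitophagy and 12 for the mitochondrial genome. Whether the share called in these lists differed from that of all genes was not tested. In MPP3 against MPP1, where 3.11% of all genes passed, Ssbp1 (0.73), Gabpb1 (0.49) and mt-Co1 (0.99) rose and Nrip1 (-2.13) fell, with adjusted p from 0.0256 to 0.0470. Phb2 (0.33, adjusted p = 0.118), Mtx2 (0.63, adjusted p = 0.0600) and Tax1bp1 (-1.01, adjusted p = 0.0551) had the lowest p of the lists without a call. In MPP2, where 6.73% of all genes passed, Phb2 (0.53), Minos1 (0.78), Mtx2 (0.83), Tefm (1.19) and Ssbp1 (0.70) rose, and Lig3 (-3.16), Pink1 (-0.72), Tax1bp1 (-0.96) and Sqstm1 (-0.83) fell, with adjusted p from 0.00966 to 0.0483. Nrip1 (adjusted p = 0.0549) and mt-Co1 (adjusted p = 0.0818) did not pass there. In 1013/1013 against WT over the 4 subsets, 2 genes of these lists passed, where 0.685% of all genes did. With the long-minus-short term, calls among all genes in this comparison fell from 128 to 9, and the genes of these lists were not tested with it. Mterf3, of the family of mitochondrial transcription termination factors, had 109 CPM in 1013/1013 and 59.1 in WT, a difference of 0.83 (SE 0.18, adjusted p = 0.0312). The cytochrome oxidase subunit gene mt-Co1 had 11297 CPM in 1013/1013 and 5094 in WT, a difference of 1.16 (SE 0.22, adjusted p = 0.0129). Genes of the mitochondrial genome took a median of 1.44% of counts in 1013/1013, 0.807% in +/1013 and 0.787% in WT. They took a median of 1.52% in the 8 libraries numbered a multiple of 3 and 0.807% in the other 24, and the part of those libraries in the mt-Co1 difference was not tested. Reads of mitochondrial sequence copied into the nuclear genome cannot be told apart in these counts. Members of lowest p in the other lists were Bcl2l13 (-0.93, adjusted p = 0.0769), Apoo (0.72, adjusted p = 0.123), Afg3l2 (-0.85, adjusted p = 0.152) and Yy1 (-1.32, adjusted p = 0.166). In +/1013 against WT no gene of these lists passed, and the gene of lowest p in each list was Mtfr1 (-0.26), Minos1 (0.24), Tefm (0.58), Esrra (0.42), Bcl2l13 (-0.32) or mt-Co1 (0.28), each with an adjusted p of 1.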

How the data were processed

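RNA-seq counts of 32 libraries of sorted bone marrow progenitors were analysed. Per the file headers, the deposited table gives raw counts per gene, which the authors did not normalise, and a median transcript length per gene. STAR, HTSeq and mm10 are named in the submitters' processing notes, and their versions and the strand setting are not given in the sources used here. Another 64 columns of per-sample values, named as normalized in the headers, were not used. Counts totalled 13016038 to 37050983 per library. Groups came from the labels' genotype and subset. Levels are CPM with TMM scaling. Tests were edgeR 4.0.16 (R 4.3.3) quasi-likelihood F-tests, with filterByExpr, a trended dispersion and 1 fit of 12 groups for 19 comparisons, Benjamini-Hochberg adjusted over 18676 genes at 0.05. Scripts were tested on simulated data. Log2 mean differences are fitted with equal weight per group and can differ from the ratio of mean CPM. DESeq2 1.42.0, limma 3.58.1 (voom), RLE factors, no filter, a robust dispersion, a replicate block, library-number and length terms and left-out libraries were tried, the length term after the data were seen. Members and lists were chosen with earlier results of these data known. Named genes were all 9 members, Cxcr4, up to 4 called genes per other list by lowest p (or the one of lowest p), and the 2 genes most like each member. Intervals are at 95% and, as the libraries hold PCR copies without molecular identifiers, cover the spread between these libraries only.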

Additional observations from a re-analysis of the deposited data

Results flagged for a closer look

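For Mfn2, the 1013/1013 libraries lay on opposite sides of the WT libraries in 2 subsets. In MPP4, both 1013/1013 libraries lay below every WT library, with means of 12.5 CPM in 1013/1013 and 33.8 CPM in WT, a log2 ratio of -1.44. In MPP1, both 1013/1013 libraries lay above every WT library, with means of 131 CPM in 1013/1013 and 78.1 CPM in WT, a log2 ratio of 0.746. The margin in MPP1 was small. The lower 1013/1013 library had 115 CPM and the highest WT library 114, while the lowest WT library had 25.1. Among all genes, 34.3% had libraries apart in this contrast in MPP4 and 19.9% in MPP1. Neither Mfn2 difference passed an adjusted p of 0.05, and the difference between MPP4 and MPP1 was not tested directly. The nearest test, the difference in MPP4 minus its mean in MPP1 to MPP3, was at -1.33 with an adjusted p of 0.650 by edgeR. The long-minus-short measure moved with these groups as well: the 1013/1013 libraries had -0.93 and -1.24 in MPP4 and 0.76 and 0.93 in MPP1. With the measure as a term, Mfn2 was at -0.20 (SE 0.67) in MPP4, and in MPP1 its difference kept a positive sign.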

How the results depend on the processing

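Of 171 values, 9 genes in 19 comparisons, the sign changed in 68 with the long-minus-short term, in 20 without the libraries numbered a multiple of 3 and in 12 or fewer in every other setting. Members called between MPP4 and MPP1 stayed 3 in the other settings, and were 4 with DESeq2 and limma-voom (Polg added) and 0 with the long-minus-short term. The MPP3 count, 3, became 2 with RLE factors (Fis1 lost, adjusted p = 0.0704), 1 without the low-count filter, 1 with a term for and 1 without libraries numbered a multiple of 3, 1 with a term for numbers of 46 or more and 0 with the long-minus-short term. The MPP2 count, 2, became 1 with RLE factors, without the filter, with limma-voom and with the multiple-of-3 term, and 0 without those libraries, with the 46-or-more term and with the long-minus-short term, where Fis1 reversed to -0.0926. In 1013/1013 against WT over the subsets, DESeq2 called 1 and dropping multiples of 3 called 1; in MPP4 DESeq2 called 2 and limma-voom 1; in MPP2 dropping multiples of 3 called 1, with 1 1013/1013 library left, assumed to vary like the other groups. DESeq2 called 1 in MPP3 WT. Leaving out 1 library gave 3 to 4 calls in MPP4, 0 to 4 in MPP3 and 0 to 3 in MPP2 against MPP1, and 0 to 1 for 1013/1013 over the subsets, in MPP4 and in MPP2. No label says that replicate numbers pair libraries, and not every same-number correlation passed 0.1 (66 of 160, median 0.053, from -0.288 to 0.372), although fewer did between other numbers (40 of 308, median -0.0246). Replicate 3 of WT and +/1013 in MPP4, MPP3 and MPP2 is a library numbered a multiple of 3. With the replicate block, Mfn2 in MPP3 went to -1.14 (adjusted p = 0.0505), leaving 2 calls there, and no other call changed. Genes called overall for 1013/1013 over the subsets numbered 128, and 1854 with DESeq2, 353 with limma-voom, 207 with the multiple-of-3 term, 1127 without those libraries, 85 with the 46-or-more term and 9 with the long-minus-short term. In MPP4 1013/1013 they were 133, and 2079, 363, 183, 45, 76 and 11 in the same order. Against MPP1 they were 2747, 581 and 1256 in MPP4, MPP3 and MPP2, with 4570, 1852 and 3056 by DESeq2, 4316, 1562 and 2379 by limma-voom, and 747, 201 and 17 with the long-minus-short term. The 46-or-more term gave 585 in MPP2, and dropping multiples of 3 gave 381 in MPP3. The causes of these moves were not tested. Groups of 2 and 3 libraries and counts of 0 for Opa1 limit precision.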
